A study of Mus musculus with 12 samples.

Results

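The genes that encode the contents of the cytotoxic granule were examined in OT-I CD8+ T cells by bulk RNA sequencing. The 10 members were taken by symbol: the granzymes Gzma, Gzmb, Gzmc, Gzmk and Gzmm, perforin (Prf1), the death ligand Fasl, the granule genes Nkg7 and Srgn, and the granzyme B inhibitor Serpinb9. All 10 were found among the 55536 annotated genes of the count table, and all 10 passed the filter on low counts that left 18817 genes for testing. OT-I cells carry 1 transgenic T cell receptor that recognises the ovalbumin peptide SIINFEKL. According to the study's methods, naive cells from the spleens of Rag1-/- or Rag2-/- OT-I donors were transferred into C57BL6/J recipients, which then received the peptide. In the Ag group (5 libraries) the peptide came with rat IgG. In the Ag+Costim group (5 libraries) it came with agonist antibodies to the costimulatory receptors OX40 (CD134) and 41BB (CD137), so both agents differ together between these groups. The labels give harvest at day 4 for both groups, the study's methods give a slightly shorter time, and transferred cells were recovered by sorting for CD8, the donor's CD45 allele and the transgenic receptor chains. The Naive group (2 libraries) was OT-I cells of transgenic mice that had received neither transfer nor peptide, so it also differs from the others in having no recipient. The study calls its replicates biological, but the labels do not tie each library to its own mouse, so p-values measure the spread between these samples.

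A killer T cell stores perforin and granzymes in secretory lysosomes and releases them into the contact with its target. Perforin makes pores in the target's membrane, and the granzymes, a family of serine proteases, then cleave proteins inside it. Granzyme B cuts after aspartate and activates caspases, granzymes A and K cut after basic residues, and granzyme M prefers methionine and leucine. Serglycin, the product of Srgn, is the proteoglycan that packs these positively charged proteases in the granule. Nkg7 is a granule membrane protein needed for efficient degranulation, Serpinb9 shields the cell from its own granzyme B, and Fas ligand kills through a receptor and not through the granule. Naive T cells are known to hold little granzyme B until antigen has acted on them.

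The counts of a library summed to between 24006053 and 49294934. Ag 4 had the lowest total, and the other 11 libraries had at least 40028682. The defining T cell genes Cd3d, Cd3e, Cd3g, Cd8a, Cd8b1 and Trac were abundant everywhere, at a summed 3976 to 10762 CPM (counts scaled by library size, with edgeR's TMM factors). Their sum ran from 7123 to 10762 CPM in Ag and from 3976 to 5462 CPM in Ag+Costim. Cd4 stayed at or below 2.44 CPM. Natural killer cells, which carry the same granule genes, have 5 marker genes on the list used here, and these summed to a median of 19.6 CPM in Naive, 7.60 to 21.8 CPM in Ag and 1.22 to 4.42 CPM in Ag+Costim. The 4 B cell genes summed to 108 to 154 CPM in Ag and 22.2 to 57.1 CPM in Ag+Costim, and the 5 erythroid genes to 625 to 6373 CPM in Ag and 14.5 to 222 CPM in Ag+Costim. The highest erythroid level belonged to Ag 4. The 3 platelet genes summed to 1.18 to 1.87 CPM in Naive, 2.05 to 13.3 CPM in Ag and 0.427 to 2.14 CPM in Ag+Costim. The 6 myeloid genes summed to 28.8 to 106 CPM in Naive, 42.4 to 162 CPM in Ag and 77.0 to 121 CPM in Ag+Costim. Of these, Csf1r went from a mean of 5.52 to 16.3 CPM and Itgam from 1.96 to 10.3 CPM between Ag and Ag+Costim. Itgam had 31.7 CPM in Ag+Costim 5 and 2.30 to 8.84 CPM in the other Ag+Costim libraries. Adgre1 had 0.870 to 3.13 CPM in Ag and 2.15 to 9.10 CPM in Ag+Costim. The rest of this list went the other way: Lyz2 from a mean of 79.5 to 58.5 CPM, S100a8 from 4.71 to 2.43 CPM and S100a9 from 4.39 to 2.79 CPM. The 3 plasmacytoid dendritic cell genes summed to 266 to 291 CPM in Naive, 42.0 to 76.6 CPM in Ag and 71.1 to 118 CPM in Ag+Costim. Most of the Naive sum was Ccr9, with 180 and 208 CPM there and at most 1.38 CPM in any Ag or Ag+Costim library. Siglech was at 0 in all Naive and Ag libraries. Bst2 had a mean of 84.6 CPM in Naive, 57.3 CPM in Ag and 90.9 CPM in Ag+Costim. The 4 mast cell and basophil genes summed to 0.515 to 0.819 CPM in Naive, 0.241 to 1.38 CPM in Ag and 0.116 to 0.643 CPM in Ag+Costim. Mcpt4 was at 0 in all libraries and Fcer1a in all Naive and Ag libraries, while Cpa3 reached 1.38 CPM in Ag and Mcpt8 was detected at 0.0465 to 0.429 CPM in all Ag+Costim libraries. The part of these other cells in the differences between groups was not tested.

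Between Naive and Ag, edgeR's quasi-likelihood test (adjusted p below 0.05 by Benjamini-Hochberg over all 18817 genes) called 7 of the 10 members higher in Ag, against 24.2% of all genes tested. These were Gzmk, Gzmc, Gzmb, Fasl, Serpinb9, Nkg7 and Srgn. The same test called 0 members lower, against 22.5% of all genes; 0 were lower at an unadjusted p below 0.05, and 0 were called lower by DESeq2. Between Ag and Ag+Costim, 6 of the 10 members were called higher with costimulation, against 26.6% of all genes: Gzmk, Gzmb, Serpinb9, Gzmm, Gzma and Fasl. Srgn and Nkg7 were the 2 called lower, against 26.5% of all genes, and Prf1 and Gzmc were not called. Between Naive and Ag+Costim, 8 were called higher, against 26.9% of all genes, and 0 lower, against 25.4%. Without Naive 2, 4 were called higher. Srgn was lower at an unadjusted p of 0.0267, and DESeq2 called it lower. The median log2 fold change of the members was 1.53 from Naive to Ag and 1.35 from Ag to Ag+Costim, where the medians of all genes tested were 0.02 and -0.05. Under upper-quartile scaling the last of these medians was -0.24, and calls over all genes between Ag and Ag+Costim went from 5006 higher and 4979 lower to 4056 higher and 6338 lower. The comparisons share libraries, so their values are given side by side and were not tested against each other. In bulk RNA, more cells that express a gene and more RNA per cell cannot be told apart.

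**Figure D1:**
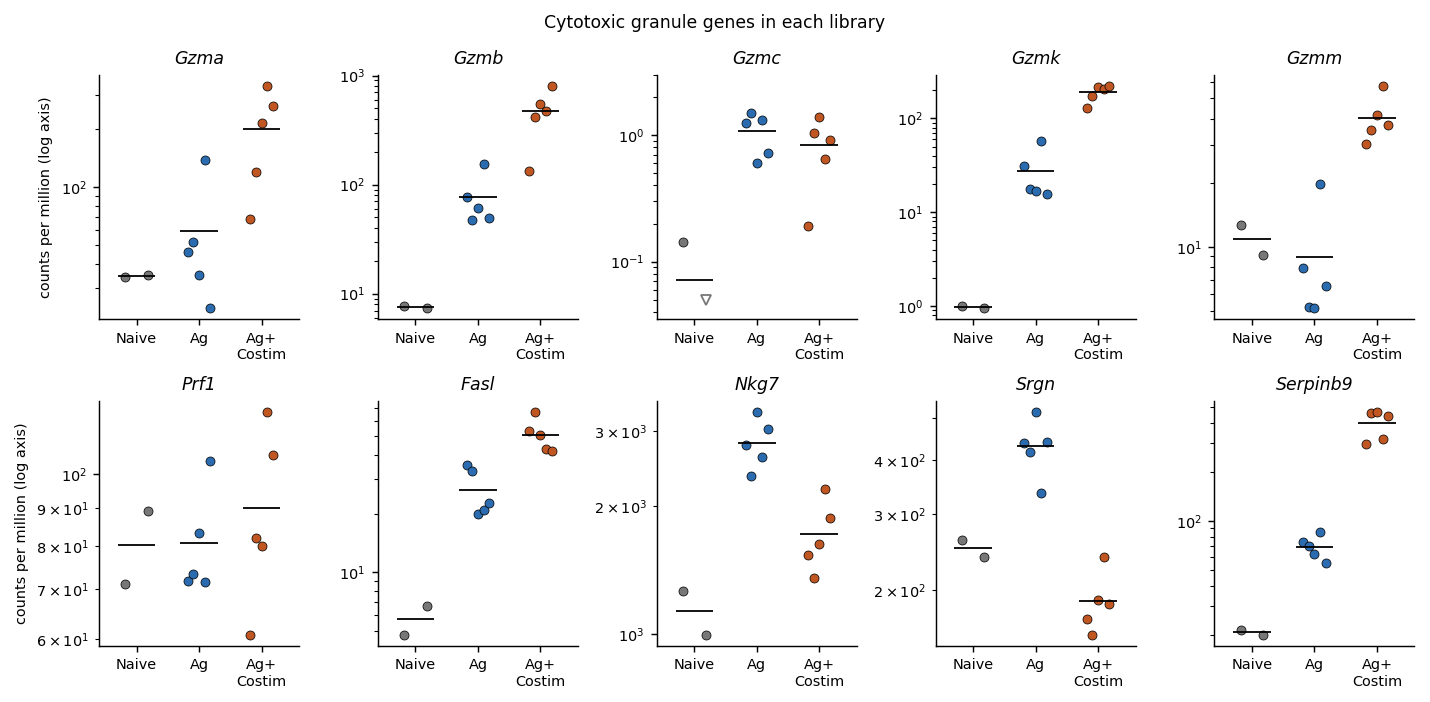
Each point is 1 library and each line a group mean, with CPM on a log axis and a separate axis for each gene. The open triangle marks the Naive library in which Gzmc had 0 counts. Gzmk, Fasl and Serpinb9 step up in both comparisons without overlap, Nkg7 and Srgn peak in Ag, and Prf1 overlaps in every comparison.

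Granzyme B and granzyme K rose in both steps. Gzmb (ENSMUSG00000015437.5, chromosome 14, 56258838 to 56262260 of mm10) stood at 7.66 and 7.35 CPM in the Naive libraries. The Ag libraries 1 to 5 had 76.9, 47.0, 60.9, 154 and 49.5 CPM, and the Ag+Costim libraries 133, 416, 546, 475 and 807 CPM. Both treated groups lay clear of Naive, but Ag 4 lay above Ag+Costim 1, so the treated groups overlapped at that pair. Gzmb rose by 3.37 on the log2 scale (SE 0.69, edgeR's adjusted p = 0.00171) from Naive to Ag and 2.62 (SE 0.45, adjusted p = 3.26e-04) from Ag to Ag+Costim. Without Ag 4, the second value was 3.02 and edgeR's adjusted p = 6.41e-05. Without Ag+Costim 1 it was 2.85 (edgeR's adjusted p = 1.62e-05). Ag+Costim 1 was the lowest Ag+Costim library for all member granzymes, Prf1 and Serpinb9, but not for Fasl, Nkg7 or Srgn. From Naive to Ag+Costim the difference came to 5.99 (SE 0.80, edgeR's adjusted p = 5.84e-05) or a fitted fold of 63.4.

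Gzmk (ENSMUSG00000042385.14, chromosome 13, 113171608 to 113225908) was nearly silent in Naive, at 0.988 and 0.945 CPM. It read 30.8, 17.5, 17.0, 58.1 and 15.7 CPM in Ag and 128, 173, 218, 204 and 224 CPM in Ag+Costim, and no group touched another. Its log2 fold change was 4.84 (SE 0.60, edgeR's adjusted p = 2.63e-05) in the first step and 2.78 (SE 0.34, adjusted p = 1.30e-05) in the second. These were the highest values among the 10 members in both comparisons. Gzmk overlaps the gene Esm1 on the other strand, and whether counting used strand is not stated.

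The promoters of these genes, from 250 bases before to 50 after the start of transcription in the RefSeq table (GRCm38.p6, the assembly that mm10 names), were searched for 5 motifs on both strands. The table holds 12 promoters for the 10 members. The Runx motif TGTGGTT was in 4 of these 12 promoters (Gzma, Gzmb, Gzmc and 1 of the 2 of Srgn) and in 5.27% of all 32851 promoters. The T-box motif GGTGTGA was in 3 of 12 (Nkg7, Gzmk and 1 of the 2 of Gzmm) and in 3.98% of all. The CRE motif TGACGTCA was in 1 of 12 (Gzmc; 1.79% of all), the AP-1 motif TGACTCA in 1 (Gzmb; 5.20% of all) and the ETS motif CCGGAAG in 1 (Srgn; 8.86% of all). The sites of the granzymes and Nkg7 below are shown because the factors of the Runx and T-box families were measured in the same libraries. Each is 30 bases, 5′ to 3′ along the gene's strand, with the motif or its reverse complement in capitals. A match says only that the letters occur there.
Gzmb, Runx, chr14:56262350-56262379, minus strand: gtgggttctgcTGTGGTTacttcatgattc
Gzma, Runx, chr13:113101014-113101043, minus strand: gagaagaacaaAACCACAtcctttgcactc
Gzmc, Runx, chr14:56234814-56234843, minus strand: caggcctccttAACCACAgcctccacatcc
Gzmk, T-box, chr13:113181022-113181051, minus strand: ttgaaaccttgGGTGTGAaaaatctaacgt
Gzmm, T-box, in the promoter of the second of its 2 starts, chr10:79693626-79693655, plus strand: ggcagctcttgGGTGTGAccgcatatgcag
Nkg7, T-box, chr7:43437108-43437137, plus strand: agggagggggtagggaaGGTGTGAgaagaa

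Gzma and Gzmm were already detected in the Naive libraries and were not called between Naive and Ag. Gzma (ENSMUSG00000023132.8, chromosome 13, 113093825 to 113100981) had 34.1 and 35.2 CPM in Naive, 46.3, 51.8, 34.9, 138 and 23.6 CPM in Ag, and 67.9, 119, 213, 334 and 261 CPM in Ag+Costim. Ag surrounded the Naive values, and Ag 4 lay above Ag+Costim 1 and 2. From Naive to Ag, the difference in Gzma was 0.76 on the log2 scale (SE 0.70, edgeR's adjusted p = 0.398), with a 95% interval of -0.77 to 2.29. From Ag to Ag+Costim it rose by 1.76 (SE 0.52, edgeR's adjusted p = 0.0135). Without Ag 4 these values were 0.18 (edgeR's adjusted p = 0.797) and 2.34 (adjusted p = 5.53e-04). Without Ag+Costim 1 the rise from Ag to Ag+Costim was 1.98 (edgeR's adjusted p = 0.00441). The difference from Naive to Ag+Costim was 2.52 (SE 0.77, edgeR's adjusted p = 0.0172), and it was no longer called with either Naive library left out (2.51, adjusted p = 0.108, without Naive 1 and 2.54, adjusted p = 0.111, without Naive 2).

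Gzmm (ENSMUSG00000054206.2, chromosome 10, 79689020 to 79695261) read 12.6 and 9.13 CPM in Naive, 7.94, 5.19, 5.13, 19.7 and 6.54 CPM in Ag, and 30.6, 35.3, 41.9, 57.4 and 37.3 CPM in Ag+Costim. In Ag, 4 of the 5 libraries lay below both Naive libraries and Ag 4 lay above them, while all Ag+Costim libraries lay above all others. From Naive to Ag the log2 fold change was -0.30 (SE 0.44, edgeR's adjusted p = 0.601), and without Ag 4 it was -0.81 and called lower (adjusted p = 0.0173). From Ag to Ag+Costim, Gzmm rose by 2.20 (SE 0.35, edgeR's adjusted p = 1.15e-04). Its call above Naive in Ag+Costim was lost without Naive 2 (1.68, adjusted p = 0.0654). Ag 4 was the highest Ag library for Gzma, Gzmb, Gzmk and Gzmm. It was also the highest for the summed erythroid, natural killer, myeloid, platelet and mast cell genes, but not for the B cell or plasmacytoid dendritic cell genes.

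Gzmc (ENSMUSG00000079186.3, chromosome 14, 56231441 to 56234656) was a trace transcript. It had 7 and 0 counts in the Naive libraries, 26 to 67 in Ag and 8 to 65 in Ag+Costim. On the log2 scale, Gzmc exceeded Naive by 3.84 in Ag (SE 1.04, edgeR's adjusted p = 0.00799) and by 3.48 in Ag+Costim (SE 1.02, adjusted p = 0.0113). With so few Naive counts the size of this change is poorly fixed, and over the alternative settings the fitted value in Ag ran from 0.99 to 8.49. Without the Naive library that had 0 counts, neither difference was called (edgeR's adjusted p = 0.0581 and 0.0757). Between Ag and Ag+Costim the log2 fold change was -0.36, with an interval of -1.63 to 0.92. The related genes Gzmd, Gzme, Gzmg and Gzmn had 0 counts in all 12 libraries, and Gzmf reached at most 0.277 CPM. A count of 0 allows up to 3 counts, or 0.0609 to 0.125 CPM depending on the library, counting error only. No run of 100 bases, the length of a read, was shared between a transcript of any member and a transcript of another annotated gene.

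**Figure D2:**
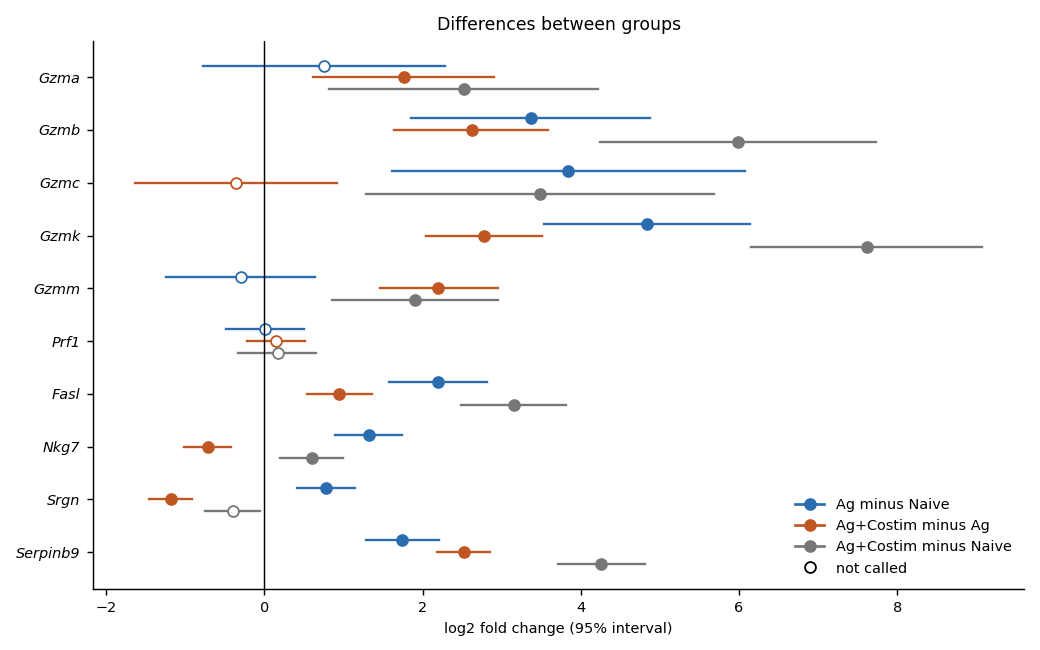
Points are log2 fold changes from edgeR's fit over all 12 libraries and bars their 95% intervals, with open points for genes that were not called. The granzymes, Fasl and Serpinb9 lie to the right with costimulation, apart from Gzmc at -0.36, while Nkg7 and Srgn are at -0.71 and -1.18.

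Perforin mRNA was called in no comparison, while each member granzyme was called in some. The granzymes did not share a single course either. Gzma and Gzmm were not called from Naive to Ag, nor Gzmc from Ag to Ag+Costim. Prf1 (ENSMUSG00000037202.6, chromosome 10, 61297833 to 61304680) had 71.2 and 89.2 CPM in Naive, 71.8, 73.4, 83.4, 71.7 and 104 CPM in Ag, and 60.9, 81.9, 80.1, 121 and 106 CPM in Ag+Costim. The 3 groups overlapped throughout. The log2 fold change was 0.01 (SE 0.23) from Naive to Ag, with an interval of -0.48 to 0.50, and 0.15 (SE 0.17) from Ag to Ag+Costim, with an interval of -0.22 to 0.52. edgeR's adjusted p was 0.971 and 0.484, and none of the alternative settings called Prf1 in either direction, although its sign changed under 8 of them in the comparison of Naive with Ag or of Ag with Ag+Costim. The upper bound for costimulation lies below the lower bounds of Gzmb (1.64), Gzmk (2.04), Gzmm (1.46) and Serpinb9 (2.18). A difference between genes was not itself tested.

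Fasl (ENSMUSG00000000817.10, chromosome 1, 161780689 to 161788495) rose with antigen and rose again with costimulation. Naive libraries had 4.77 and 6.70 CPM, Ag libraries 35.5, 33.0, 19.9, 20.9 and 22.6 CPM, and Ag+Costim libraries 53.0, 66.6, 50.4, 42.8 and 41.9 CPM. No group overlapped another. On the log2 scale Fasl rose by 2.20 (SE 0.29, edgeR's adjusted p = 3.88e-05) and then 0.95 (SE 0.19, adjusted p = 8.48e-04), and both were called in all 22 alternative settings.

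Nkg7 and Srgn, the granule membrane protein and the packing proteoglycan, moved up with antigen and down with costimulation. Nkg7 (ENSMUSG00000004612.9, chromosome 7, 43437073 to 43438249) was the most abundant member in all groups. Its values were 1265 and 998 CPM in Naive, 2783, 2349, 3328, 2609 and 3030 CPM in Ag, and 1539, 1353, 1633, 2198 and 1873 CPM in Ag+Costim. Ag lay above both other groups and Ag+Costim above Naive. The log2 fold change was 1.32 (SE 0.19, edgeR's adjusted p = 1.00e-04) from Naive to Ag and -0.71 (SE 0.14, adjusted p = 5.88e-04) from Ag to Ag+Costim. Ag+Costim stood 0.60 above Naive (SE 0.19, edgeR's adjusted p = 0.0148), a call that was lost under 6 of the 22 alternative settings, among them FPKM (0.33, adjusted p = 0.103) and leaving out Naive 2 (0.44, adjusted p = 0.192).

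Srgn (ENSMUSG00000020077.14, chromosome 10, 62493833 to 62527451) read 261 and 239 CPM in Naive, 438, 418, 516, 336 and 441 CPM in Ag, and 172, 158, 190, 239 and 186 CPM in Ag+Costim. Ag was above all other libraries, and Ag+Costim lay below Naive, with Ag+Costim 4 and Naive 2 both at 239 CPM after rounding. It rose by 0.78 on the log2 scale with antigen (SE 0.17, edgeR's adjusted p = 0.00225) and fell by 1.18 with costimulation (SE 0.13, adjusted p = 3.75e-06). Its difference between Naive and Ag+Costim, -0.40 (SE 0.16, edgeR's adjusted p = 0.0510), was called in 9 of the 22 alternative settings. The T cell marker sum was lower in Ag+Costim as well, and whether this bears on Nkg7 and Srgn was not tested.

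Serpinb9 (ENSMUSG00000045827.10, chromosome 13, 33003250 to 33017957), the inhibitor of granzyme B, had the smallest p of the members with costimulation. It stood at 21.3 and 20.1 CPM in Naive, at 73.9, 69.8, 62.6, 85.9 and 55.3 CPM in Ag, and at 298, 462, 467, 320 and 442 CPM in Ag+Costim. The lowest Ag+Costim library was 298 CPM and the highest Ag library 85.9 CPM, and the lowest Ag library (55.3 CPM) lay above both Naive libraries. Serpinb9 rose by 1.74 on the log2 scale (SE 0.22, edgeR's adjusted p = 2.53e-05) and then 2.52 (SE 0.16, adjusted p = 4.56e-08). For Gzmb, the protease it inhibits, the corresponding values were 3.37 and 2.62.

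Of the 10 members, 7 did not overlap between Naive and Ag, 6 between Ag and Ag+Costim, and 9 between Naive and Ag+Costim. Among all genes tested the same held for 56.4%, 39.8% and 66.0%, so the shares among members are to be read against these.

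Levels per length, as the sum of the deposited FPKM over a gene's transcripts, give the order of the members within a group. In Naive, Nkg7 (1608 ± 267 FPKM, SD, n = 2) came first, then Srgn (282 ± 17.2), Gzma (43.5 ± 1.29) and Prf1 (37.2 ± 6.19). Gzmm, Serpinb9, Gzmb and Fasl followed at 9.29, 6.73, 5.75 and 3.26 FPKM, Gzmk was at 1.04 FPKM and Gzmc at 0.0844 FPKM, and no neighbours in this order overlapped between the 2 libraries. In Ag, Nkg7 (3463 ± 346 FPKM, SD, n = 5) and Srgn (432 ± 47.0) kept the lead. The neighbours Gzma, Gzmb, Prf1, Gzmk, Serpinb9, Fasl and Gzmm then ranged from 67.4 down to 6.91 FPKM, and each overlapped the next. In Ag+Costim, Gzmb (315 ± 161 FPKM, SD, n = 5) and Gzma (214 ± 115) ranked after Nkg7 (2037 ± 386) by their means. Srgn (184 ± 30.3) and Gzmk (159 FPKM on average) followed. From Gzmb to Gzmk each overlapped the next. In Ag+Costim 1, Srgn (171 FPKM) lay above Gzmb (89.7 FPKM) and Gzma (74.8 FPKM). Serpinb9 (111 ± 22.2) overlapped Gzmk and lay above Prf1 (35.6 ± 9.27). Gzmb exceeded Prf1 in all 5 Ag+Costim libraries and lay below it in both Naive libraries.

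The make-up of the granzyme pool shifted with antigen. The summed FPKM of the 5 granzymes was 60.4 and 58.9 in Naive. It was 138, 112, 94.9, 346 and 78.2 in Ag, and 298, 577, 793, 889 and 1035 in Ag+Costim, with Ag 4 above Ag+Costim 1. Gzma made up 70.5% and 75.4% of the sum in Naive, 33.2% to 52.5% in Ag and 22.4% to 40.5% in Ag+Costim. Gzmb went from 9.69% and 9.60% in Naive to 29.1% to 42.7% in Ag and 30.1% to 51.8% in Ag+Costim. Gzmk held 1.77% and 1.72% in Naive, 13.3% to 19.2% in Ag and 18.3% to 36.9% in Ag+Costim. All treated libraries thus differed from Naive in the same direction for the 3 genes, while Ag and Ag+Costim overlapped for each. These shares are given as a description, without a test.

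**Figure D3:**
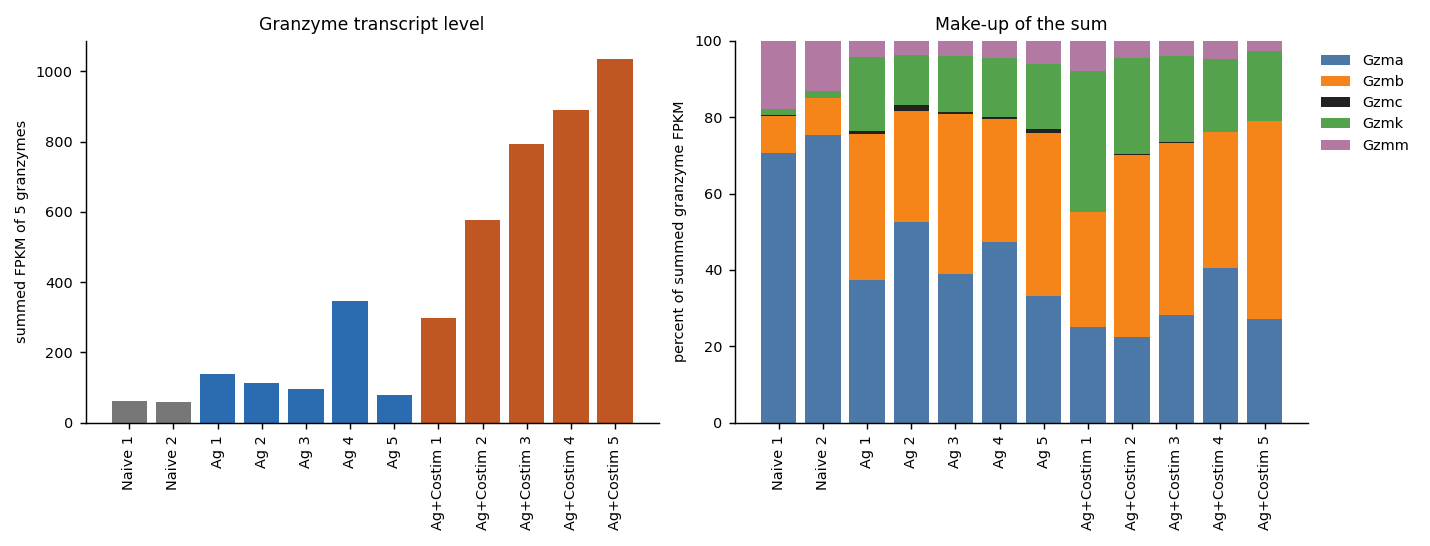
The left bars are the summed FPKM of Gzma, Gzmb, Gzmc, Gzmk and Gzmm in each library, from 0, and the right bars split that sum into percent per gene. The sum is 60.4 or less in Naive and 298 or more in Ag+Costim. In all treated libraries the share of Gzma is lower than in Naive and those of Gzmb and Gzmk are higher. Gzma is still the largest share in Ag 2, Ag 4 and Ag+Costim 4.

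Transcript use was compared between Ag and Ag+Costim for the 6 members with at least 2 transcripts that each held 5% or more of the gene's counts, by an exact permutation test over libraries (two-sided, smallest possible p 0.00794). Only Nkg7 differed. Its leading transcript Nkg7-201 held 66.9%, 63.5%, 66.9%, 65.0% and 66.0% of the gene's transcript counts in Ag and 67.2%, 68.4%, 67.7%, 67.4% and 68.9% in Ag+Costim. These do not overlap and differ by 2.28 percentage points (exact permutation p = 0.00794, adjusted p = 0.0476 over the 6 genes). The adjusted p passed the threshold narrowly, and it did not with any of Ag+Costim 2, 3, 4 or 5 left out. Ag and Ag+Costim still did not overlap in those cases. With so few arrangements, groups that do not overlap can fall on either side of the threshold. In Naive, the share was 57.4% and 59.1%. The leading transcript of Srgn went from 92.0% ± 1.40 to 90.1% ± 1.18 (SD, n = 5 each, exact permutation adjusted p = 0.143). The leading transcripts of Gzma, Gzmk, Prf1 and Serpinb9 had adjusted p of 0.190 to 0.579.

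Splicing values from Whippet (Psi, the fraction of reads that include a node of the gene) were deposited as 1 value per group, so they carry no error and no test. Of 46 nodes in the 10 members, 4 differed by more than 0.05 between Ag and Ag+Costim, 8.70% against 19.1% of all 115403 events. They lie at the ends of 2 genes, in the tandem polyadenylation nodes, of which the members have 11. Thus 36.4% of the members' nodes of this kind differed, against 44.7% of all 12351. In Serpinb9, the node at chromosome 13, 33015447 to 33017955 (mm10) had a Psi of 0.709 in Ag and 0.597 in Ag+Costim, and the 2-base node after it 0.291 and 0.403. In Fasl, the node at chromosome 1, 161781422 to 161781791 had 0.186 and 0.249, and the terminal node at 161780689 to 161781421 had 0.815 and 0.752. The 28 core exon nodes of the members all differed by less than 0.05, where 12.9% of all 89034 such nodes differed by more, and in most of them Psi was near 1 in both groups.

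The rest of the pathway was described with 52 further genes, of which 47 passed the filter on low counts. From Naive to Ag, 25 were called higher, against 24.2% of all genes tested, and 11 lower, against 22.5%, with a median log2 fold change of 0.46. From Ag to Ag+Costim, 21 were called higher, against 26.6% of all genes, and 17 lower, against 26.5%, with a median of 0.15. The first count was 16 without Naive 1 and 14 without Naive 2. The list was split by role, and the counts of each role are to be read against the same 4 percentages.

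Among 14 genes of granzyme processing, sorting and the granule membrane, 6 were higher and 2 lower in Ag than in Naive (24.2% and 22.5% of all genes), while costimulation raised 6 and lowered 5 of them (26.6% and 26.5% of all genes). Cst7, an inhibitor of the cathepsin that activates granzymes, went from 80.6 to 296 CPM in Ag (log2 fold change 1.88, SE 0.18), and Lamp1, the marker protein of degranulation, from 93.6 to 222 CPM (1.24, SE 0.18). In Ag+Costim both fell, by 0.59 and 0.84. Gnptab, which makes the mannose-6-phosphate tag that sorts granzymes, went from 38.6 to 124 CPM (1.69, SE 0.18). Calr, the calcium-binding chaperone of perforin, went from 306 to 932 CPM (1.61, SE 0.11). The protease gene Ctsl fell by 1.77 (SE 0.19).

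Among 14 genes of docking, priming and fusion, 6 were higher and 5 lower in Ag than in Naive (all genes 24.2% and 22.5%), while costimulation raised 6 and lowered 6 (all genes 26.6% and 26.5%). Rab27a, a small GTPase that docks granules, ran opposite in the 2 comparisons: it fell from 50.0 to 18.2 CPM in Ag (-1.46, SE 0.11, edgeR's adjusted p = 5.47e-07) and stood at 97.4 CPM in Ag+Costim (2.42, SE 0.10, adjusted p = 2.56e-09). Sytl2, a Rab27a effector, stood at 10.8 CPM in Ag and 35.4 CPM in Ag+Costim (1.72, SE 0.13). The syntaxin Stx11, whose loss causes a familial cytotoxicity disorder, rose from 3.57 to 33.3 CPM with antigen (3.23, SE 0.28). Vamp8, a granule SNARE, was lower with costimulation (-1.09, SE 0.08).

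Of 6 serpins and other inhibitors, 5 were higher and 1 lower in Ag than in Naive (all genes 24.2% and 22.5%), while costimulation raised 3 and lowered 1 (all genes 26.6% and 26.5%). Serpinb6b (2.83, SE 0.12) was among the 5, and Serpina3g (1.91, SE 0.32) and Serpina3f, at 3.31 CPM in Ag and 12.2 CPM in Ag+Costim, were higher with costimulation. Of 9 genes of other death ligands and the Fas pathway, 6 were higher and 2 lower in Ag than in Naive. With costimulation, 2 were higher and 5 lower, against 26.6% and 26.5% of all genes. Fadd, the adaptor of the Fas receptor, rose by 1.33 (SE 0.12), while the cytokine gene Lta fell by 1.38 (SE 0.19).

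All 4 transcription factors on the list were higher in Ag+Costim than in Ag, against 26.6% of all genes tested. Tbx21, which encodes T-bet, read 79.7 to 135 CPM in Ag and 303 to 511 CPM in Ag+Costim (2.02, SE 0.19, edgeR's adjusted p = 1.09e-06), Eomes had a log2 fold change of 1.69 (SE 0.16), and Prdm1, which encodes Blimp-1, went from 0.930 to 17.4 CPM (4.24, SE 0.27). Runx3 fell from 113 to 50.0 CPM with antigen (-1.18, SE 0.14, edgeR's adjusted p = 1.74e-05) and was higher with costimulation, by 1.42 (SE 0.11, adjusted p = 3.00e-07). Tbx21 and Eomes rose in Ag as well, by 1.51 and 0.88.

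**Figure D4:**
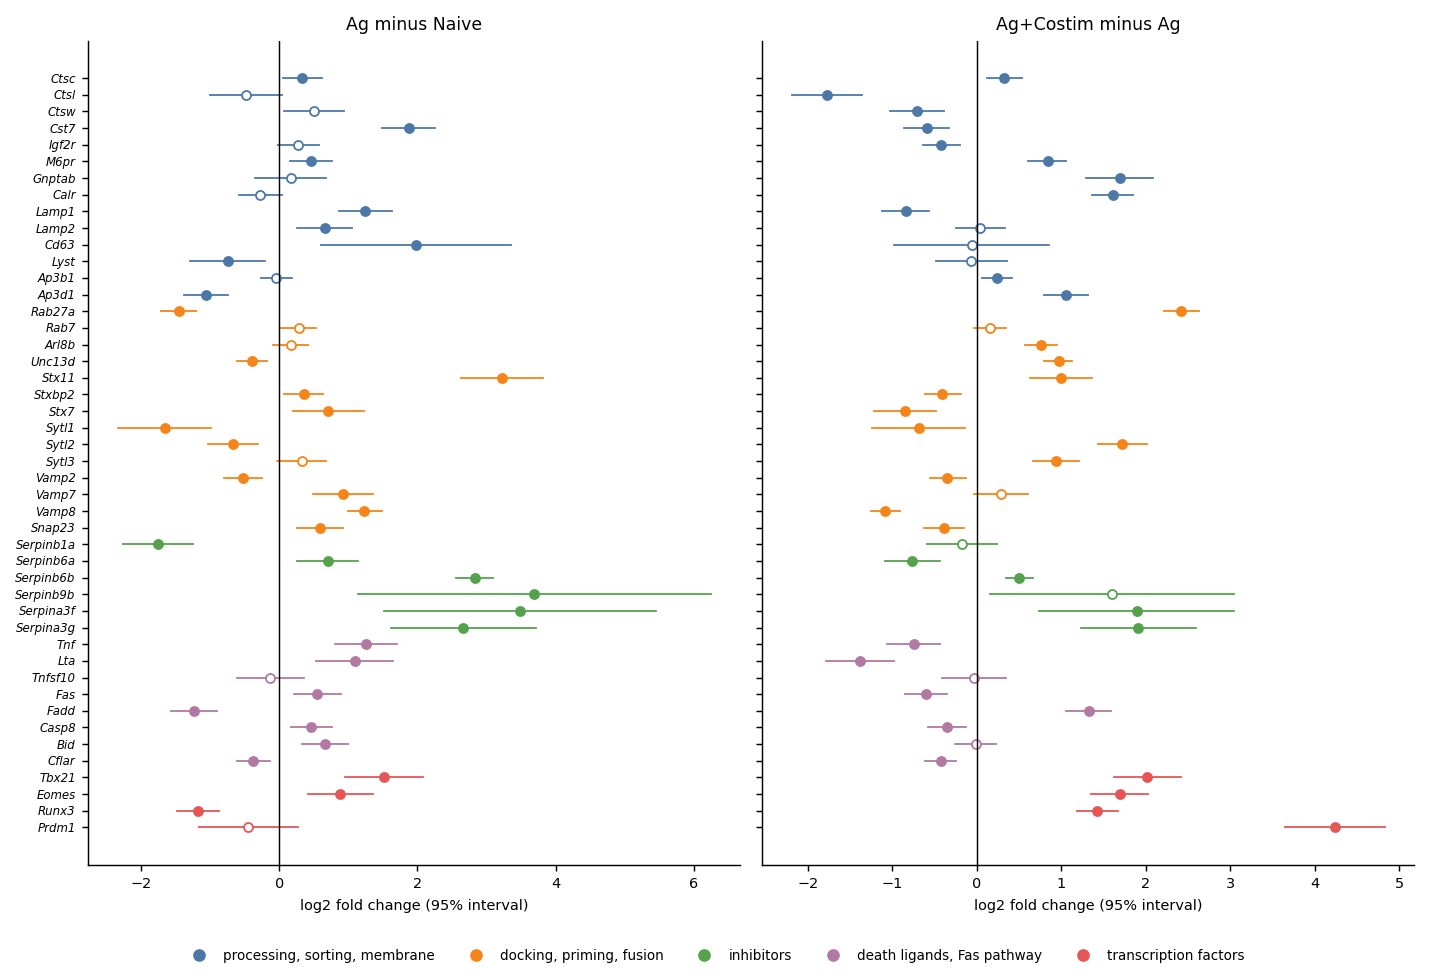
Log2 fold changes with 95% intervals for tested genes of the pathway, grouped by role, in Ag against Naive (left) and Ag+Costim against Ag (right); open points were not called. Rab27a moves from -1.46 to 2.42, and all 4 transcription factors are to the right of 0 with costimulation.

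The pattern of a member over the 12 libraries was compared with 9247 genes with a mean log2 CPM above 3, by the root-mean-square difference of log2 CPM after each gene's mean was subtracted. For Gzmb the nearest was Itgax (0.49), then Top2a (0.63), Bspry (0.64), Hist1h1b (0.66) and Cip2a (0.67). For Gzma, they were Swap70 (0.49), Lair1 (0.53), Ly6a (0.56), Errfi1 (0.57) and Id2 (0.58). For Prf1, they included Armc7 (0.11), Smpd1 (0.14), Traf3ip2 (0.16) and Smap2 (0.16). The measure is not scaled by how far a gene moves, and Prf1 moved little. Its smaller values are therefore not to be read as a closer likeness than those of Gzmb or Gzma. No other member was among the 5 nearest genes of any of these 3.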

How the data were processed

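RNA was measured in 12 libraries (5 Ag, 5 Ag+Costim and 2 Naive) made with SMART-Seq v4 and Nextera XT kits and read as single reads of 100 bases. Per the submitters' processing notes, the authors used HISAT2 2.1.0, SAMtools 1.9, StringTie 2.1.0, R 4.0.5 and DESeq2 1.30.1, with mm10. The authors deposited expected counts per gene and per transcript as StringTie estimates them, whole numbers that are not normalized, so a count is not exactly 1 read. The FPKM values deposited by the authors are per transcript, scaled for length and library size. The Psi values, a fraction deposited by the authors from Whippet, pool each group. The authors' own columns of Psi differences and probabilities were not used, and Psi events are named here by a difference above 0.05 in size alone.

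Gene identifiers were matched to GENCODE vM21 (55536 of 81881 entries, the other 26345 being unannotated loci holding 0.0508% to 0.121% of a library's counts). Counts were fitted with edgeR 4.0.16 in R 4.3.3 over all 12 libraries after TMM scaling and filterByExpr, with the robust quasi-likelihood test (two-sided) and adjustment by Benjamini-Hochberg. The SE is the log2 fold change divided by the root of its F value. Only 2 Naive libraries were analysed here, which limits every comparison with Naive. Alternatives were other scalings, no filter, DESeq2 1.42.0, limma 3.58.1 on log2(FPKM + 1) and log2(FPKM + 0.1), 2 groups alone, a gene length correction, a replicate block and each library left out. CPM use TMM library sizes. Python 3.11.15, numpy 2.4.6, pandas 2.3.3, scipy 1.17.1 and matplotlib 3.10.9 served for the rest. Simulated counts with known changes were run through the edgeR fit as a check. The first pass mark, a guessed share of all changed genes to be called, was not met, and it was replaced after that was seen by one on genes with higher counts, which was met; changed genes of low count can therefore be missed.

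The members, lists and tests were chosen with earlier results of these data known. All members are named. Of the other pathway genes, at most the 3 called genes with the largest change in each sublist and comparison were to be named, and pattern likeness was to give 5 genes for each of Gzmb, Gzma and Prf1. Some genes that these rules name are not reported here, though counts over a list include them.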

Additional observations from a re-analysis of the deposited data

Results flagged for a closer look

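The 5 libraries of a group were searched for a library far from the others by Dixon's ratio, the gap to the nearest library divided by the whole range, in the 20 combinations of a member with Ag or Ag+Costim. Ag 4 stood out in 3 of them. The ratio was 0.754 for Gzma in Ag (138 CPM), 0.720 for Gzmb in Ag (154 CPM) and 0.806 for Gzmm in Ag (19.7 CPM), against a critical value of 0.71. Chance flags about 1 in 20 groups. Ag 4 also had the lowest total of counts and the highest erythroid level. Its summed natural killer (21.8 CPM), myeloid (162 CPM), platelet (13.3 CPM) and mast cell and basophil genes (1.38 CPM) were the highest in Ag as well. The B cell sum was highest in Ag 2 (154 CPM) and the plasmacytoid dendritic cell sum in Ag 3 (76.6 CPM). The part of these in the granzyme levels of Ag 4 was not tested.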

How the results depend on the processing

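Of the 660 values of members under alternative settings, 626 kept their direction and their side of the threshold, 12 lost their call, 10 gained one and 12 changed sign. Those that changed sign were all of Prf1. From Naive to Ag they were -0.21 with the replicate block, -0.03 with the gene length correction, -0.18 in each of the 3 FPKM fits and -0.09 and -0.14 without Ag 5 and without Naive 1 (-0.14 to 0.19 over all libraries left out). From Ag to Ag+Costim the value was -0.04 under upper-quartile scaling, and from Naive to Ag+Costim -0.09 with the block and -0.09, -0.10 and -0.09 in the FPKM fits. With DESeq2 and with RLE scaling, upper-quartile scaling or any FPKM fit, 1 member (Srgn) was called lower in Ag+Costim than in Naive, against 0; leaving out 1 library gave 0 to 1, and it was called without Ag 3, Ag 4 or Ag+Costim 4. Leaving out 1 library gave 0 to 1 members lower and 6 to 7 higher in Ag than in Naive, and 4 to 8 higher in Ag+Costim than in Naive, with 4 without Naive 2. It gave 14 to 26 genes of the wider list higher and 2902 to 4948 of all genes higher and 2781 to 4617 lower in Ag than in Naive, lowest without Naive 2. FPKM fits called 16 (with the filter) and 14 (without) of the wider list higher in Ag, against 25, and the length correction called 7 lower, against 11. The leading transcripts that differed were 0 to 1 with a library left out. With the replicate block they were 0, but the test over 5 pairs used there cannot give a p below 0.05 whatever the values. The cause of the other shifts was not tested. The share of all calls that were higher between Naive and Ag was 51.9%, and 35.6% on unfiltered FPKM.

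Deviations of Ag and Ag+Costim libraries with the same replicate number correlated at 0.0951, 0.0657, 0.045, 0.0159 and 0.0194. Those with unlike numbers correlated at -0.0817 to 0.0746. All these values are low, and they do not settle whether the numbers pair the samples. With the block, edgeR called 4993 genes higher and 4743 lower with costimulation, and Gzmc (3.46, adjusted p = 0.0667) and Nkg7 (0.41, adjusted p = 0.0640) were not called between Naive and Ag+Costim.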
